A study of Mus musculus with 6 samples.

Results

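The genes described here bear the names of mitochondrial ribosomal proteins, and all but Mrps36, which is now placed in another complex, encode proteins of the mitochondrial ribosome. They were taken as every row of the expression tables whose symbol is Mrpl or Mrps, a number and at most 1 further letter, which gave 78 of the 17067 genes listed. Transcript levels had been measured by RNA sequencing in macrophages that were sorted by flow cytometry, as CD45+CD11b+F4/80+ cells, from colons of 10-week-old C57BL/6 mice. There were 3 samples from Gsdmd-/- mice and 3 from wild-type (WT) mice, and the mice of both groups had been given dextran sulfate sodium (DSS), a polymer that injures the colon lining and causes colitis. Gsdmd encodes gasdermin D, the pore-forming protein of pyroptosis. The promoter or cell type in which Gsdmd is lost, the part of the gene removed and whether a sample was 1 mouse or a pool are not in the sources used, so p-values below measure the spread between samples, which may be technical.

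Mitochondria carry their own small genome, and the messenger RNAs it encodes, all for subunits of the respiratory chain and ATP synthase, are translated inside the organelle by a dedicated ribosome. That ribosome has a small subunit, which binds the messenger RNA and decodes it, and a large subunit, which joins the amino acids and is held at the inner membrane. Its ribosomal RNAs come from mitochondrial DNA, but every protein of it is encoded in the nucleus, made in the cytosol and imported. Some of these proteins descend from bacterial ribosomal proteins, and others are found only in mitochondrial ribosomes. In macrophages, mitochondrial respiration is among the functions that shift when the cells are activated. No mitochondrially encoded RNA was analysed here.

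The values were deposited without a unit and were read as FPKM, fragments scaled by transcript length and by the number of mapped fragments in the library. Gsdmd itself had 28.47, 28.99 and 29.69 FPKM in Gsdmd-/- samples, against 97.65, 99.35 and 97.35 FPKM in WT samples. It was lower in every Gsdmd-/- sample, in the direction the labels give, with transcript remaining at 0.296 of the WT mean. The 10 macrophage markers summed to between 8857 and 8932 FPKM in Gsdmd-/- samples and to between 7979 and 8475 FPKM in WT samples. All 10 were above the detection filter. Most of that sum was Lyz2, which averaged 5469 FPKM in Gsdmd-/- samples and 5008 FPKM in WT samples. Depth, estimated from the step that 1 fragment makes in low values, ran from 20.35 to 20.65 M fragments in Gsdmd-/- samples and from 19.75 to 20.65 M in WT samples. Summed over all genes, FPKM came to between 551502 and 565388 in Gsdmd-/- samples and to between 476271 and 485411 in WT samples.

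Genes were tested with limma on log2(FPKM + 1), a scale that makes changes of weakly expressed genes look smaller, and a gene is said to be higher, lower, risen or fallen where its p, adjusted by Benjamini-Hochberg over all 10005 tested genes, was under 0.05. Because changes between genotypes differed with transcript length over all genes, they are also given after correction. Correction means that a smooth trend on length and GC was fitted in each sample and subtracted. All 78 genes passed the filter of at least 1 FPKM in at least 3 samples. Of the 78, 70 were higher in Gsdmd-/- macrophages, 1 was lower and 7 were not called either way. Across all tested genes, 40.6% were higher and 36.9% lower, so that a call in either direction was common in these samples. The median log2 change of the 78 genes (Gsdmd-/- minus WT) was 0.48, with a range of -0.12 to 0.83, beside a median of 0.027 over all tested genes. The changes were modest in size: 36 of the 78 reached 0.5 on the log2 scale, and 0 of the 78 reached 1, a 2-fold change.

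**Figure D1:**
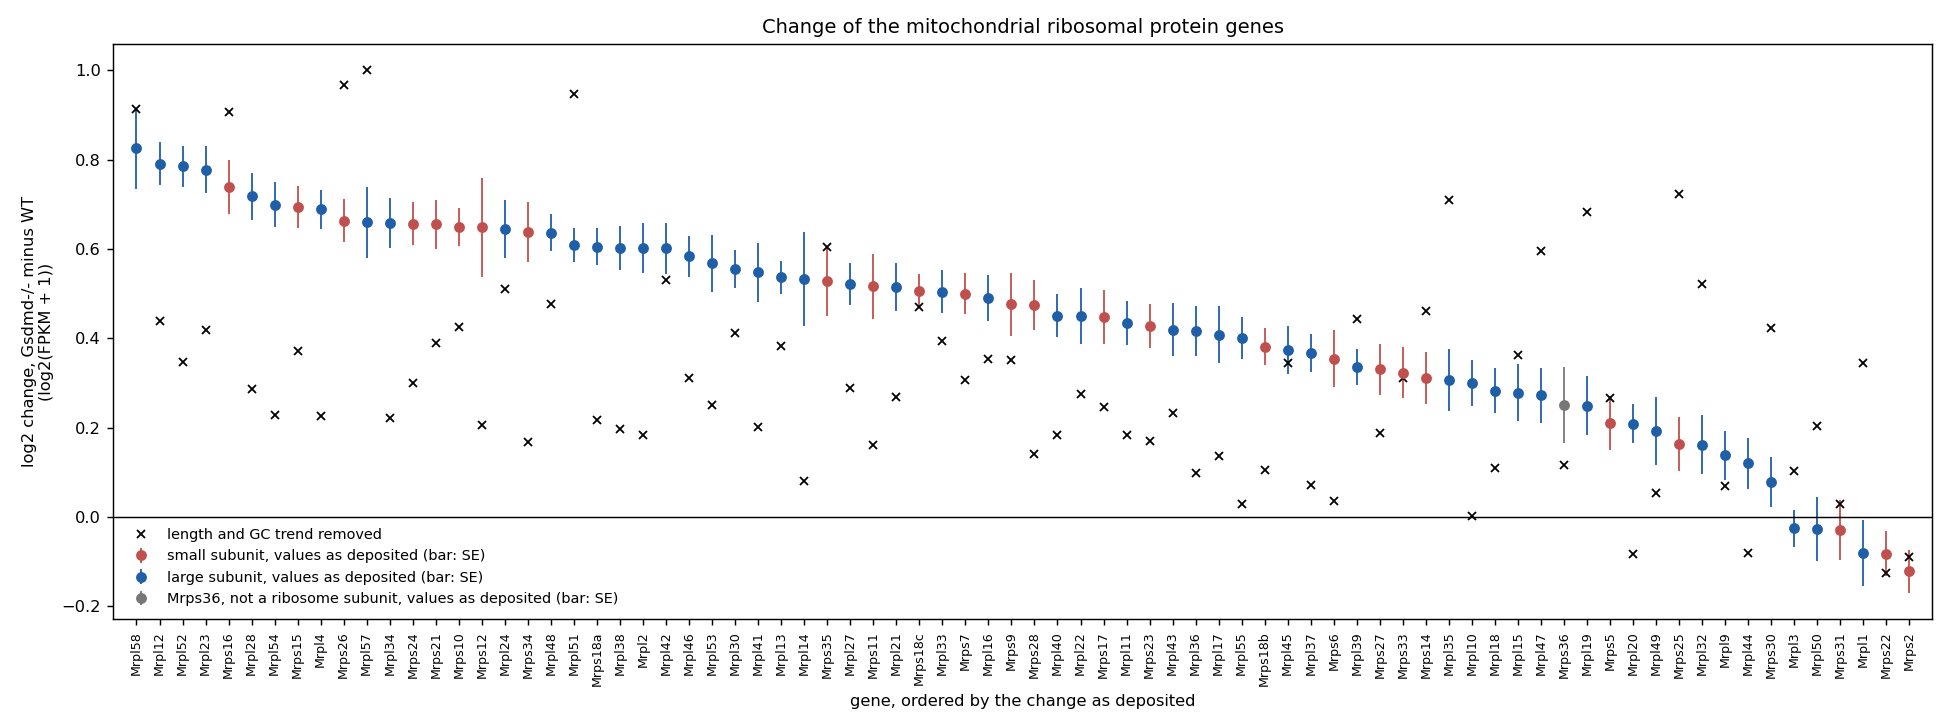
Log2 change (Gsdmd-/- minus WT, log2(FPKM + 1)) of each of the 78 genes on the vertical axis, ordered by its value before correction, with bars for the standard error of the fit and crosses for the same gene after correction for transcript length and GC. The changes run from 0.83 for Mrpl58 to -0.12 for Mrps2, and 6 genes lie below 0 before correction.

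The groups were also compared without a model. In 66 of the 78 genes the lowest Gsdmd-/- sample was above the highest WT sample, and in 2 genes, Mrps2 and Mrps22, the highest Gsdmd-/- sample was below the lowest WT sample. Over all tested genes these shares were 41.2% and 38.3%. The groups overlapped in Mrps36, Mrpl49, Mrpl32, Mrpl9, Mrpl44, Mrps30, Mrpl3, Mrpl50, Mrps31 and Mrpl1.

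Added together, the 78 transcripts came to 2497, 2505 and 2366 FPKM in Gsdmd-/- samples, against 1676, 1757 and 1681 FPKM in WT samples. The means were 2456 ± 78.04 FPKM in Gsdmd-/- samples and 1705 ± 45.4 FPKM in WT samples (SD, n = 3 each), a ratio of 1.44. Every Gsdmd-/- sum was above every WT sum. Part of that ratio lies in the scale, because FPKM summed over all genes was also larger in Gsdmd-/- samples. Scaled to the same total in every sample (TPM), the 78 transcripts made up 4433, 4430 and 4290 TPM in Gsdmd-/- samples, against 3519, 3620 and 3517 TPM in WT samples, a ratio of 1.23. Within the Gsdmd-/- group, replicate 3 was the lowest sample in 49 of the 78 genes, and within WT replicate 2 was the highest in 40 of 78.

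On the TPM scale, 53 of the 78 genes were higher and 7 were lower (Mrps30, Mrpl3, Mrpl50, Mrps31, Mrpl1, Mrps22 and Mrps2), with 25.0% of all tested genes higher and 51.0% lower. That scale moved the median of all genes to -0.17 and the median of the 78 to 0.28. The distance between these medians was 0.45 on either scale. It was bound to change little, because TPM divides all values of a sample by the same number. None of the 70 genes higher in FPKM was lower in TPM, although 17 of them were no longer called.

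In bulk samples such as these, fewer cells of a type and less RNA per cell cannot be told apart. Markers of several other cell types moved with genotype. All 7 tested fibroblast markers of 10 listed were higher, and the 10 summed to between 89.0 and 90.8 FPKM in Gsdmd-/- samples against 33.1 to 34.7 FPKM in WT samples, while Lum, Pdgfra and Pdgfrb were under 1 FPKM in every sample. T cell markers summed to between 9.61 and 10.5 FPKM in Gsdmd-/- samples and to between 5.63 and 6.49 FPKM in WT samples, with Cd3d, Cd3e, Cd8a and Cd2 under 1 FPKM throughout. Neutrophil markers summed to between 4.25 and 6.09 FPKM in Gsdmd-/- samples and to between 2.54 and 3.89 FPKM in WT samples. Of those, 1 was tested, Cxcr2, which was higher, and S100a9, Ly6g, Mpo and Retnlg were under 1 FPKM throughout. Epithelial markers summed to between 1.84 and 2.16 FPKM in Gsdmd-/- samples and to between 3.11 and 3.53 FPKM in WT samples. Nearly all of that was Cdh1, the 1 epithelial marker tested, which was lower, while Krt8, Krt19, Vil1, Cldn7 and Muc2 were under 1 FPKM in every sample. Endothelial markers summed to between 33.1 and 38.5 FPKM in Gsdmd-/- samples and to between 62.5 and 66.6 FPKM in WT samples. That gap lay in Kdr, which averaged 26.2 FPKM in Gsdmd-/- samples and 56.4 FPKM in WT samples and was lower, whereas Cdh5 and Vwf were not called and Pecam1, too low to be tested, averaged 0.86 FPKM in Gsdmd-/- samples and 0.363 FPKM in WT samples. Eosinophil markers summed to between 2.88 and 3.24 FPKM in Gsdmd-/- samples and to between 5.25 and 5.31 FPKM in WT samples, with both tested markers lower. Mast cell markers summed to between 2.01 and 2.1 FPKM in Gsdmd-/- samples and to between 3.47 and 3.73 FPKM in WT samples, with the 1 tested marker lower. No B cell or plasma cell marker reached 1 FPKM, and the 1 dendritic cell marker tested was not called. Of the 10 macrophage markers, 3 were higher (Cd68, Fcgr1 and Lyz2) and 5 lower, beside 40.6% and 36.9% of all tested genes. The lower ones were Ptprc, Itgam, Adgre1, Csf1r and Mertk, and Ptprc, Itgam and Adgre1 encode the surface proteins used for sorting. Ptprc averaged 57.87 FPKM in Gsdmd-/- samples and 92.44 FPKM in WT samples. In the same order, Itgam averaged 91.26 and 176.5 FPKM, and Adgre1 215.7 and 290.8 FPKM. The part of other cell types in the changes of the ribosomal genes was not tested.

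Nuclear genes for mitochondrial proteins often carry promoter elements for NRF1, for the ETS factor GABP and for YY1, so the promoters of the set were read for such letters. RefSeq windows (build GRCm38.p6, 250 bases before to 50 bases after a start) were found for 69 of the 78 genes, 75 windows in all. The ETS letters CCGGAAG stood on either strand in 34.7% of these windows, beside 19.3% of the windows of tested genes and 8.9% of all windows. The NRF1 core (GCGC, then any base, then TGCGC) stood in 17.3% of them, beside 10.7% of tested and 4.6% of all windows. The YY1 core ATGGCGGC stood in 16.0%, beside 5.2% and 2.2%. The E-box CACGTG, read for comparison, stood in 9.3%, beside 10.4% and 7.2%. Counted by gene, the ETS letters stood in 26 of the 69 genes, the NRF1 core in 13, the YY1 core in 12 and the E-box in 5. Overlapping windows of Mrpl2 hold the same E-box. These are matches of letters, not measured binding. The YY1 letters can also spell a start of translation: in 11 genes the match lay on the sense strand 2 to 30 bases after the transcription start, and in 10 of those it began at an annotated start codon.

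The 150 bases around the start of a window (120 before, 30 from the start on) are shown for 5 of the genes. Matches to the ETS, NRF1 and YY1 letters are in capitals. For Mrps2 and Mrpl45 that start lies inside the annotated gene, which begins at chr2:28465951 for Mrps2 and at chr11:97314923 for Mrpl45. Sequence at those outer ends was not read. Mrpl58 and Mrpl12 had the 2 largest log2 changes. Mrpl45 has 3 NRF1 matches, Mrps18a has an ETS match and a YY1 match that begins at its start codon, and Mrps2, the gene called lower, has none of these letters in this stretch. In the full windows, Mrpl52 and Mrps16, also among the largest changes, had ETS matches, whereas Mrpl23 and Mrpl28 had no match. Of genes with negative log2 changes, Mrpl3 had an ETS match, Mrpl50 a YY1 match and Mrpl1 none. Whether matches went with the change was not tested.
Mrpl58, chr11:115403632-115403781, + strand: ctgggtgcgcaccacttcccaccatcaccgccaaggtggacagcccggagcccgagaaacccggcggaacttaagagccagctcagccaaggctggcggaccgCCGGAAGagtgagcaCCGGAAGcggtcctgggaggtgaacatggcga
Mrpl12, chr11:120484517-120484666, + strand: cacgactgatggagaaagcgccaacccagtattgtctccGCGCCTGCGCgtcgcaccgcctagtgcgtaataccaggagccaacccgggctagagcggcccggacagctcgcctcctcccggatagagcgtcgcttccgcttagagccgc
Mrpl45, chr11:97315596-97315745, + strand: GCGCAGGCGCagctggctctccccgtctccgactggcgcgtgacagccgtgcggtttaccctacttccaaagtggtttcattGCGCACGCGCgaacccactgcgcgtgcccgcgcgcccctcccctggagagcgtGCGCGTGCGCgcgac
Mrps18a, chr17:46110884-46111033, + strand: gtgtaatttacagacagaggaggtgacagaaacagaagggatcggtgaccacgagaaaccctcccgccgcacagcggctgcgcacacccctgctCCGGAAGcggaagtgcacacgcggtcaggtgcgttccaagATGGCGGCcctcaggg
Mrps2, chr2:28467946-28468095, + strand: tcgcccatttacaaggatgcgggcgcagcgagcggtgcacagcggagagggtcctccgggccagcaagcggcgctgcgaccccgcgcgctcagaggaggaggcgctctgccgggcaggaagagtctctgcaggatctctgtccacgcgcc
In Mrpl58 both capital runs are ETS matches, and in Mrpl12 the run is an NRF1 match. The letters are given as a description of sequence only.

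Large-subunit genes came first in size of change. Mrpl58 encodes a peptidyl-tRNA hydrolase built into the large subunit that can release stalled chains. It had 25.96, 26.47 and 21.87 FPKM in Gsdmd-/- samples, against 12.23, 15.51 and 12.93 FPKM in WT samples. All Gsdmd-/- samples were above all WT samples, and the log2 change of 0.83 (SE 0.0909, limma adjusted p = 1.56e-05) was the largest of the 78. Mrpl23, whose bacterial counterpart lies at the exit of the peptide tunnel, had 68.50, 73.16 and 66.06 FPKM in Gsdmd-/- samples, against 37.11, 42.80 and 40.15 FPKM in WT samples. It rose by 0.78 on the log2 scale (SE 0.0527, limma adjusted p = 1.032e-07), with no overlap between groups, and by 0.42 after correction.

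Mrpl52, a protein found only in mitochondrial ribosomes, was the most abundant transcript of the set. It had 158.77, 159.48 and 140.22 FPKM in Gsdmd-/- samples, against 87.07, 90.38 and 86.92 FPKM in WT samples, a log2 change of 0.79 (SE 0.0460, limma adjusted p = 3.786e-08) before correction and 0.35 after correction. Mrpl28, of bacterial descent, had 34.27, 34.53 and 33.63 FPKM in Gsdmd-/- samples, against 19.47, 22.34 and 19.39 FPKM in WT samples, a log2 change of 0.72 (limma adjusted p = 1.337e-07) before correction and 0.29 after correction. In both genes the 3 Gsdmd-/- samples stood above the 3 WT samples.

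The stalk of the large subunit is where translation factors dock, and its 2 proteins differed in size of change. Mrpl12, the factor-binding protein of the stalk, had 38.09, 39.77 and 37.26 FPKM in Gsdmd-/- samples, against 21.20, 23.32 and 20.79 FPKM in WT samples. It rose by 0.79 on the log2 scale (SE 0.0481, limma adjusted p = 3.105e-08), and by 0.44 after correction. Mrpl10, which anchors Mrpl12 to the ribosome, had 29.49, 27.77 and 27.60 FPKM in Gsdmd-/- samples, against 21.09, 23.89 and 23.47 FPKM in WT samples. The log2 change of Mrpl10 was 0.30 (limma adjusted p = 0.000189) before correction and 0.0019 (adjusted p = 0.974) after correction. Mrpl45, which holds the large subunit at the inner membrane, had 24.59, 24.36 and 25.09 FPKM in Gsdmd-/- samples, against 17.89, 18.08 and 20.59 FPKM in WT samples. It rose by 0.37 before correction (limma adjusted p = 4.126e-05) and by 0.34 after correction.

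In the small subunit, Mrps16, of bacterial descent, had 34.80, 35.96 and 33.21 FPKM in Gsdmd-/- samples, against 18.68, 22.49 and 20.08 FPKM in WT samples. It rose by 0.74 (SE 0.0601, limma adjusted p = 4.242e-07) before correction and by 0.91 after correction. Mrps12, which lies at the decoding site, had 33.58, 31.50 and 24.98 FPKM in Gsdmd-/- samples, against 18.74, 20.40 and 16.95 FPKM in WT samples. The log2 change of Mrps12 was 0.65 (SE 0.11, limma adjusted p = 0.000845), with replicate 3 well below the other Gsdmd-/- samples, and after correction it was 0.21 (adjusted p = 0.0659). Mrps21, the most abundant small-subunit transcript, had 101.04, 105.27 and 96.88 FPKM in Gsdmd-/- samples, against 58.26, 69.00 and 64.55 FPKM in WT samples, a log2 change of 0.65 (limma adjusted p = 8.806e-07) before correction and 0.39 after correction.

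Mammals keep 3 homologues of the bacterial protein S18, and all 3 genes were higher in Gsdmd-/- macrophages. Mrps18a, whose protein sits in the large subunit despite its name, had 61.85, 61.30 and 56.06 FPKM in Gsdmd-/- samples, against 38.81, 38.90 and 38.97 FPKM in WT samples, a log2 change of 0.61 (SE 0.0408, limma adjusted p = 6.816e-08). Mrps18c had 73.62, 72.34 and 67.20 FPKM in Gsdmd-/- samples, against 50.45, 49.35 and 49.38 FPKM in WT samples, a log2 change of 0.51 (limma adjusted p = 1.848e-07). Mrps18b had 35.27, 34.18 and 33.01 FPKM in Gsdmd-/- samples, against 27.02, 25.49 and 25.47 FPKM in WT samples, a log2 change of 0.38 (limma adjusted p = 4.243e-06). None of the 3 overlapped between groups. After correction their log2 changes were 0.22, 0.47 and 0.11 in the order Mrps18a, Mrps18c, Mrps18b, all still called higher. For Mrps18b that call (limma adjusted p = 0.0315) was lost without WT replicate 2 or 3 or without Gsdmd-/- replicate 1 or 2. Other annotated genes cover 23.2% of the exon bases of Mrps18c on the same strand and 30.5% of those of Mrps18b on the opposite strand.

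**Figure D2:**
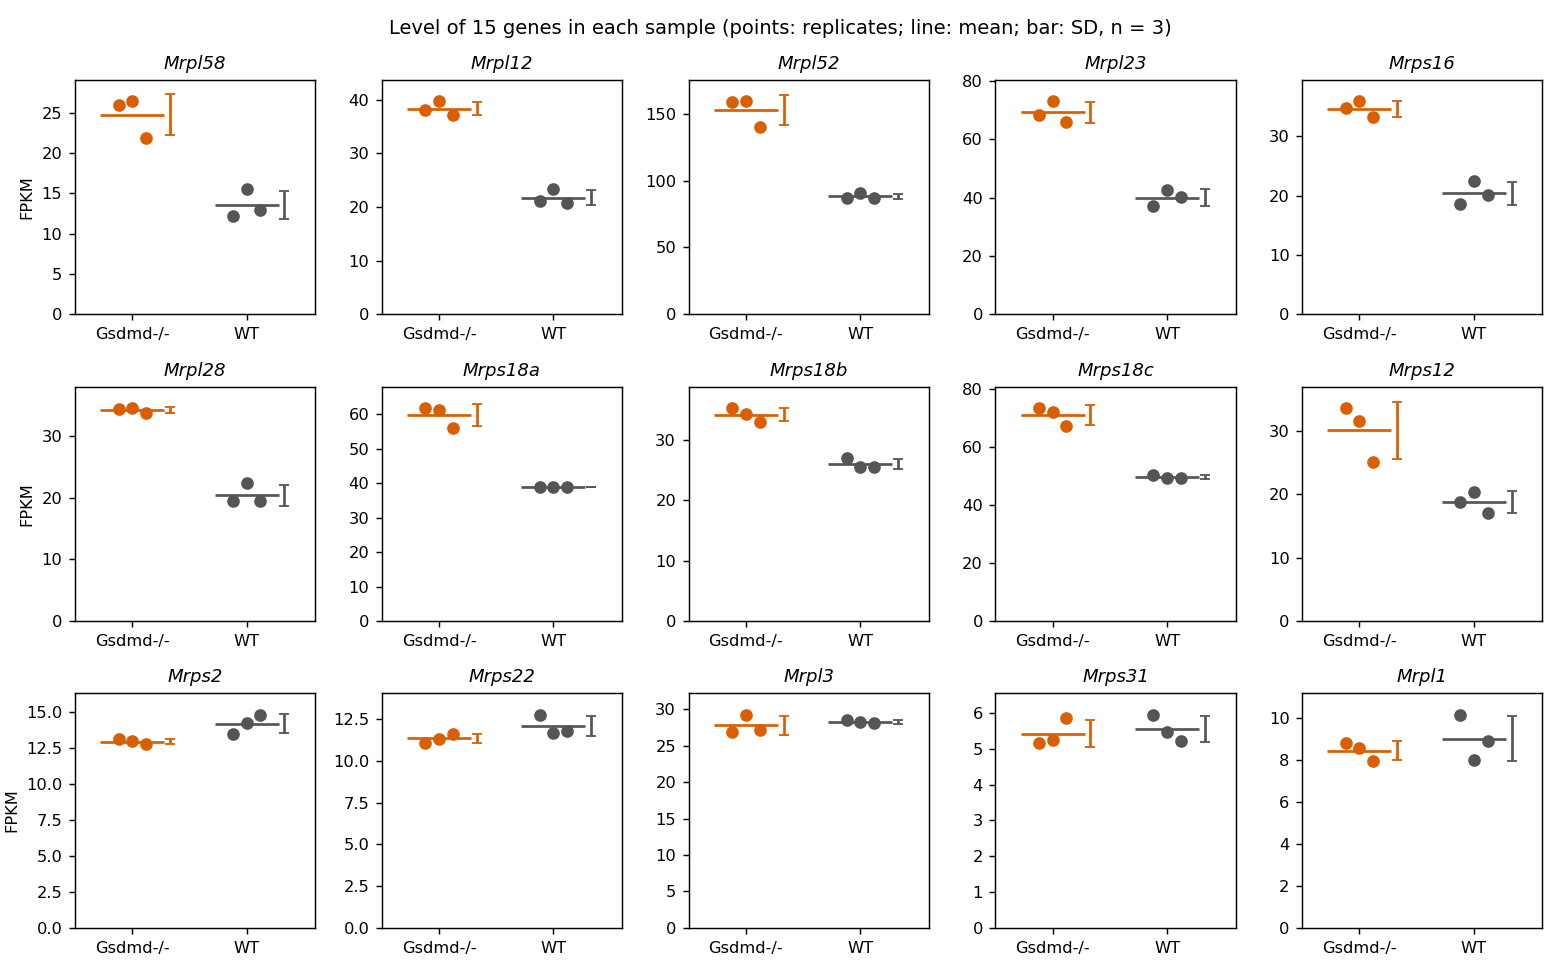
FPKM of 15 genes of the set in each sample, Gsdmd-/- on the left of each panel and WT on the right, with points for replicates, a line for the mean and a bar for the SD (n = 3). In the upper 2 rows the groups are apart, as in Mrps18a at 56.06 to 61.85 FPKM in Gsdmd-/- against 38.81 to 38.97 FPKM in WT samples, and in the lowest row they meet or the order is turned.

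A few genes did not follow the rest. Mrps2, a small-subunit protein of bacterial descent, was the only one called lower before correction: it had 13.11, 12.96 and 12.75 FPKM in Gsdmd-/- samples, against 13.48, 14.24 and 14.81 FPKM in WT samples. For Mrps2 this made a log2 change of -0.12 (SE 0.0484, limma adjusted p = 0.0366), or -0.090 (adjusted p = 0.104) after correction. The call was also lost when any sample but WT replicate 1 was left out. Mrps22, a small-subunit protein of mitochondria alone that is mutated in human mitochondrial disease, had 11.08, 11.34 and 11.61 FPKM in Gsdmd-/- samples, against 12.77, 11.66 and 11.80 FPKM in WT samples. Its log2 change was -0.0825 (limma adjusted p = 0.157) before correction and -0.13 (adjusted p = 0.0347) after correction, which made it the only gene of the 78 called lower then. That call was lost without WT replicate 1 or without Gsdmd-/- replicate 1 or 2.

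Mrpl3, whose bacterial counterpart reaches towards the peptidyl transferase centre, had 26.88, 29.24 and 27.17 FPKM in Gsdmd-/- samples, against 28.53, 28.18 and 28.07 FPKM in WT samples. Its log2 change was -0.026 (95% interval -0.12 to 0.066, limma adjusted p = 0.589) before correction and 0.10 (adjusted p = 0.0465) after correction. Mrpl1, the protein of the mobile stalk beside the tRNA exit site, had 8.81, 8.59 and 7.96 FPKM in Gsdmd-/- samples, against 10.17, 8.03 and 8.89 FPKM in WT samples. Its log2 change was -0.081 (95% interval -0.24 to 0.082, limma adjusted p = 0.337) before correction and 0.34 (adjusted p = 0.00124) after correction. The direction of both genes thus turned with that step, as it did for Mrpl50 (-0.028 before correction, 95% interval -0.19 to 0.13, and 0.20 after correction) and Mrps31 (-0.029 before correction, 95% interval -0.18 to 0.12, and 0.029 after correction).

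Mrpl50 had 4.93, 5.37 and 5.66 FPKM in Gsdmd-/- samples, against 5.99, 5.02 and 5.34 FPKM in WT samples, and Mrps31 had 5.17, 5.23 and 5.86 FPKM in Gsdmd-/- samples, against 5.95, 5.48 and 5.22 FPKM in WT samples. Mrpl44, a ribonuclease-like protein of the large subunit, had 12.23, 13.93 and 13.09 FPKM in Gsdmd-/- samples, against 12.64, 11.64 and 11.59 FPKM in WT samples, a log2 change of 0.12 (95% interval -0.0056 to 0.24, limma adjusted p = 0.0745). Mrps30, which is now placed in the large subunit, had 16.63, 15.34 and 14.38 FPKM in Gsdmd-/- samples, against 14.33, 15.17 and 14.23 FPKM in WT samples. Its log2 change was 0.077 (95% interval -0.045 to 0.20, limma adjusted p = 0.225) before correction and 0.42 (adjusted p = 0.000112) after correction. Groups overlapped in all 4 of these genes.

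Mrps36 bears the name of a ribosomal protein but is now placed in the 2-oxoglutarate dehydrogenase complex of the citric acid cycle. It had 32.23, 33.59 and 26.98 FPKM in Gsdmd-/- samples, against 23.37, 28.05 and 25.96 FPKM in WT samples, so the groups overlapped. That gave a log2 change of 0.25 (limma adjusted p = 0.0206) before correction and 0.12 (adjusted p = 0.215) after correction. The call was lost without WT replicate 1 or 3 or without Gsdmd-/- replicate 1 or 2. Mrps36 was left out of the counts by subunit.

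Both subunits were mostly higher, where 40.6% of all tested genes were higher and 36.9% lower. Of 26 small-subunit genes, 23 were higher and 1 lower with a median log2 change of 0.48, and of 51 large-subunit genes 46 were higher with a median of 0.49. Small-subunit transcripts summed to 737.1, 731.1 and 698.1 FPKM in Gsdmd-/- samples, against 497.4, 518.0 and 492.5 FPKM in WT samples. Large-subunit transcripts summed to 1727, 1740 and 1641 FPKM in Gsdmd-/- samples, against 1155, 1211 and 1163 FPKM in WT samples. The sum of the small subunit divided by that of the large was 0.427, 0.42 and 0.425 in Gsdmd-/- samples, against 0.431, 0.428 and 0.423 in WT samples, ranges that overlapped. By descent, 45 of the 48 genes with a bacterial homologue were higher and 1 lower (median 0.48), and 24 of the 29 genes found only in mitochondrial ribosomes were higher (median 0.45). The 9 mitochondria-specific genes of the small subunit had a median of 0.33 and the 20 of the large subunit a median of 0.56, a difference that was not tested.

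**Figure D3:**
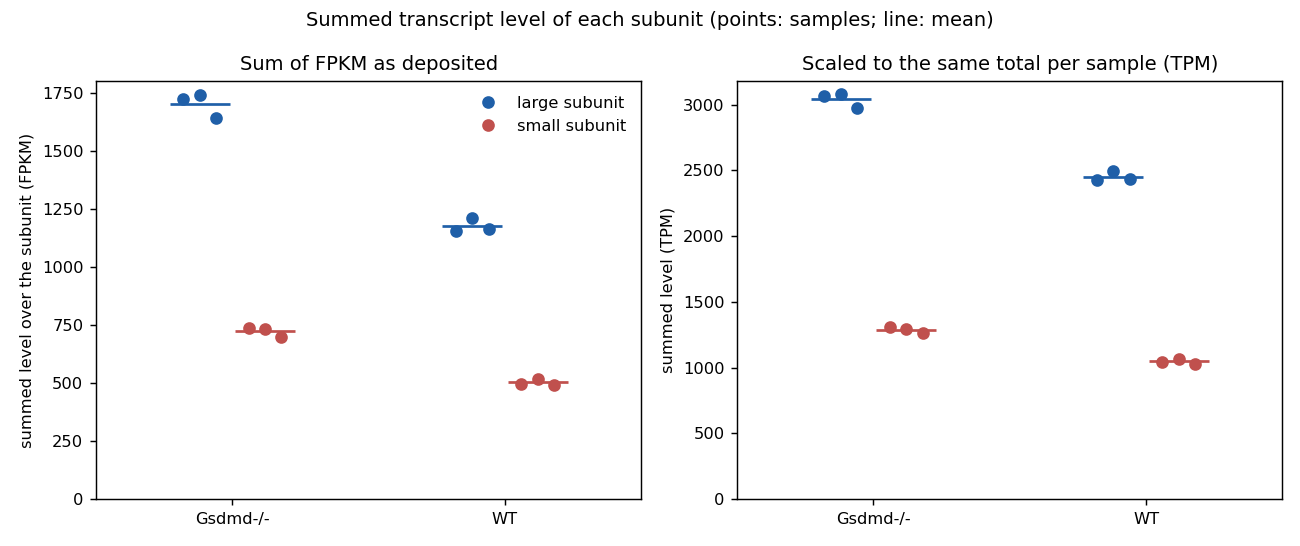
Summed FPKM (left) and the same sum in TPM (right) over the large-subunit and small-subunit genes, 1 point per sample, with Gsdmd-/- left of WT and a line for the mean. Large-subunit sums lie at 1641 to 1740 FPKM in Gsdmd-/- samples and at 1155 to 1211 FPKM in WT samples, and the relative gap is narrower in TPM.

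Levels differed more between genes than between groups. Over all 6 samples the mean levels spanned a 35.2-fold range, with a median of 21.1 FPKM, although most of the proteins are present once in each ribosome. The highest means were 120.5 FPKM for Mrpl52, 82.5 for Mrps21, 75.6 for Mrpl30 and 67.2 for Mrpl54. Mrpl30 had 93.01, 90.34 and 86.93 FPKM in Gsdmd-/- samples, against 57.77, 64.87 and 60.49 FPKM in WT samples (log2 change 0.56, limma adjusted p = 2.319e-07), and Mrpl54 had 79.61, 90.65 and 79.94 FPKM in Gsdmd-/- samples, against 48.68, 52.78 and 51.28 FPKM in WT samples (log2 change 0.70, limma adjusted p = 1.844e-07). Both were without overlap between groups, and after correction their log2 changes were 0.41 for Mrpl30 and 0.23 for Mrpl54.

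At the low end were Mrps25, Mrpl17, Mrpl19 and Mrpl50. Mrpl17 had 5.13, 4.98 and 5.33 FPKM in Gsdmd-/- samples, against 3.87, 3.40 and 3.64 FPKM in WT samples, a log2 change of 0.41 (limma adjusted p = 8.856e-05), or 0.14 (adjusted p = 0.0739) after correction. It rested on an estimated 47 fragments in its lowest sample, which alone gives a counting error of 14.6%, and of the 78 genes only Mrpl41, with 45, had fewer. Mrpl19 had 5.08, 5.26 and 5.05 FPKM in Gsdmd-/- samples, against 4.59, 4.02 and 3.89 FPKM in WT samples, a log2 change of 0.25 (limma adjusted p = 0.0046) before correction and 0.68 after correction. Mrps25 had 3.59, 3.83 and 3.61 FPKM in Gsdmd-/- samples, against 3.14, 3.20 and 3.19 FPKM in WT samples, a log2 change of 0.16 (limma adjusted p = 0.0279) whose call was lost without any 1 WT sample or without Gsdmd-/- replicate 2. After correction the log2 change of Mrps25 was 0.72 (adjusted p = 2.515e-06). The values of Mrpl19 and Mrps25 are uncertain, because whether counting used the strand is not stated. Protein-coding genes on the opposite strand, Gcfc2 and Nr2c2, cover 36.0% of the exon bases of Mrpl19 and 69.8% of those of Mrps25. Exons of 33 of the 78 genes overlap another annotated gene, and in 9 the overlap exceeds 20% of exon bases. Among these are Mrpl53, 88.0% covered by Gm42688 on the same strand, and Mrps34, 63.4% covered by Mapk8ip3 on the opposite strand. Both were called higher.

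Transcript length moved with the change between genotypes across the whole transcriptome, and these genes are short. Their median annotated transcript was 1051.5 bases, beside 2064 bases for all tested genes, while median GC content was 50.5% and 50.6%. Among all tested genes under 1000 bases, 66.4% were higher in Gsdmd-/- samples and 17.2% lower, and all 36 genes of the set in that class were higher. Among genes of 1000 to under 2000 bases, 57.5% were higher and 20.7% lower, and 21 of 24 genes of the set were higher. Among genes of 2000 bases and over, 21.4% were higher and 53.5% lower, whereas 13 of the 18 genes of the set were higher and 1 was lower. The median log2 changes of the set in the 3 classes were 0.53, 0.40 and 0.26, beside 0.34, 0.21 and -0.18 for all tested genes. The last class holds only 18 genes of the set.

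**Figure D4:**
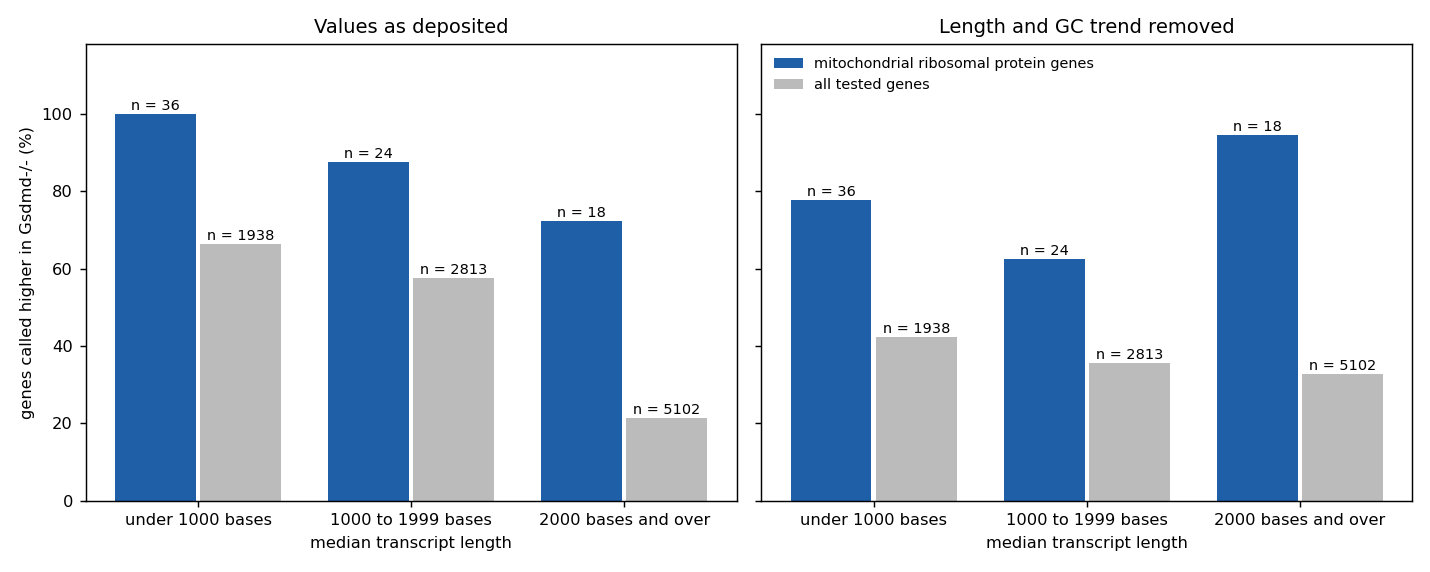
Percentage of genes called higher in Gsdmd-/- samples in 3 classes of median transcript length, for the 78 genes (blue) and all tested genes (grey), before correction on the left and after it on the right. In the class of 2000 bases and over, 21.4% of all tested genes were higher before correction, against 13 of the 18 genes of the set.

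With that trend subtracted in each sample, 60 of the 78 genes were higher and 1 was lower, beside 35.5% and 31.8% of the 9853 tested genes with a known length. The median log2 change was 0.27, beside 0.026 over all genes. Both settings called 56 of the same genes higher, 14 were called only before correction, and 4 (Mrps30, Mrpl3, Mrpl50 and Mrpl1) only after it. Of these 4, the call of Mrpl3 was lost without any 1 WT sample or without Gsdmd-/- replicate 2, and that of Mrpl50 without WT replicate 2 or 3 or without Gsdmd-/- replicate 2 or 3. By subunit, 20 of 26 small-subunit and 40 of 51 large-subunit genes were then higher, with a median of 0.28 in each. By length class from short to long, 28 of 36, 15 of 24 and 17 of 18 genes of the set were higher after correction. Among all tested genes, 42.3%, 35.6% and 32.8% were higher in these classes and 31.0%, 29.3% and 33.4% lower.

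The order of the genes changed with that step. Across the 78 genes, which are not independent, Spearman's rho of log2 change with transcript length was -0.361 before correction and 0.327 after it, and with GC content 0.507 and -0.453, so the removal turned the trend round within the set. The 4 largest changes after correction were 1.0006 for Mrpl57, 0.97 for Mrps26, 0.95 for Mrpl51 and 0.91 for Mrpl58. Their annotated transcripts have median lengths of 2877, 4278, 3427 and 2522 bases, long for this set, and which isoform the cells used was not measured.

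These 4 genes were also called higher before correction. Mrpl57, a small protein of the large subunit, had 9.22, 9.75 and 7.87 FPKM in Gsdmd-/- samples, against 4.95, 5.85 and 5.07 FPKM in WT samples, a log2 change of 0.66 before correction. Mrps26, found only in mitochondrial ribosomes, had 20.65, 20.31 and 19.94 FPKM in Gsdmd-/- samples, against 11.85, 13.19 and 12.34 FPKM in WT samples, a log2 change of 0.66. Mrpl51, also mitochondria-specific, had 31.48, 31.47 and 32.30 FPKM in Gsdmd-/- samples, against 19.91, 20.76 and 20.75 FPKM in WT samples, a log2 change of 0.61. At the other end, Mrpl20 had 70.19, 66.37 and 66.00 FPKM in Gsdmd-/- samples, against 55.59, 62.08 and 57.39 FPKM in WT samples. Its log2 change was 0.21 (limma adjusted p = 0.000868) before correction and -0.082 (adjusted p = 0.0691) after correction.

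**Figure D5:**
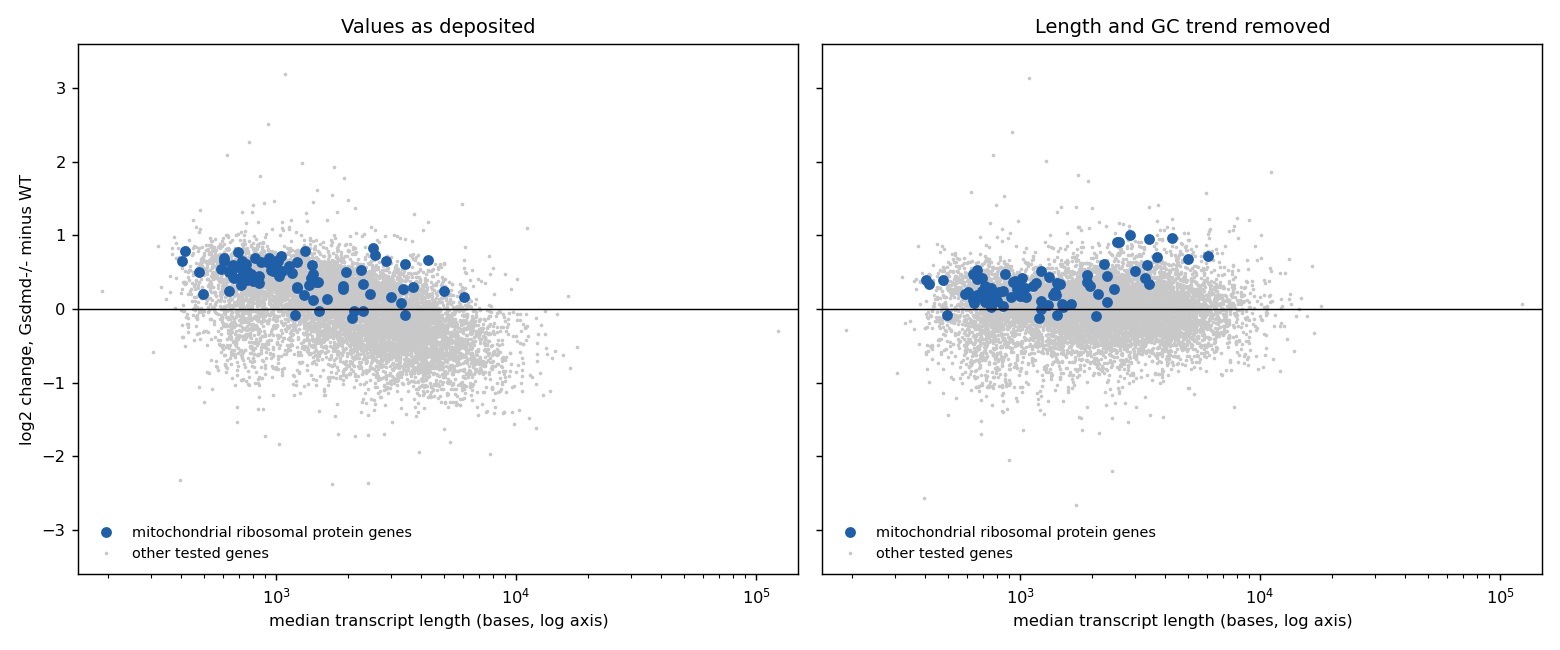
Log2 change (Gsdmd-/- minus WT) against median transcript length on a log axis for the 78 genes (blue) and the other tested genes (grey), before correction on the left and after it on the right. Before correction, long genes tend to lie below 0 and short genes above it, and genes of the set over 2000 bases lie mostly above 0 in both panels.

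Some proteins of the ribosome have genes named in other ways. All 5 such subunits listed were higher, with a median log2 change of 0.64, and all 5 were higher after correction. Gadd45gip1, a large-subunit protein near the tunnel exit, had 20.78, 17.54 and 17.71 FPKM in Gsdmd-/- samples, against 7.28, 8.24 and 8.69 FPKM in WT samples, a log2 change of 1.12 (SE 0.0743, limma adjusted p = 8.226e-08) that exceeded those of all 78 genes. Dap3, a GTP-binding protein of the small subunit, averaged 23.3 ± 0.421 FPKM in Gsdmd-/- samples and 14.6 ± 0.412 FPKM in WT samples (SD, n = 3 each), a log2 change of 0.64. Chchd1 and Aurkaip1, both small-subunit proteins, had log2 changes of 0.67 and 0.61. After correction the values were 0.40 for Dap3, 0.56 for Chchd1 and 0.20 for Aurkaip1. Ptcd3, at the entry of the messenger RNA channel, averaged 6.68 ± 0.170 FPKM in Gsdmd-/- samples and 5.99 ± 0.335 FPKM in WT samples (SD, n = 3 each), a log2 change of 0.14 (limma adjusted p = 0.0481) before correction, 0.43 after correction and -0.059 in TPM. Its call before correction was lost without WT replicate 1 or 3 or without Gsdmd-/- replicate 1 or 2.

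Translation factors work on the ribosome without being part of it. Of 13 tested, 8 (61.5%) were higher and 1 lower, with a median of 0.27, beside 40.6% higher over all tested genes. After correction 5 (38.5%) were higher and 8 not called, a share near the 35.5% over all genes. In TPM 3 (23.1%) were higher and 3 (23.1%) lower, beside 25.0% and 51.0% over all genes. Tufm, the elongation factor that brings aminoacyl-tRNA, averaged 34.1 ± 0.458 FPKM in Gsdmd-/- samples and 26.5 ± 1.11 FPKM in WT samples (SD, n = 3 each), a log2 change of 0.35 before correction and -0.018 after correction. Oxa1l, which inserts new proteins into the inner membrane, averaged 17.8 ± 0.526 FPKM in Gsdmd-/- samples and 13.4 ± 0.412 FPKM in WT samples (SD, n = 3 each), a log2 change of 0.39 before correction and 0.23 after correction. Gfm1, the translocation factor, averaged 12.8 ± 0.322 FPKM in Gsdmd-/- samples and 16.8 ± 0.313 FPKM in WT samples (SD, n = 3 each), a log2 change of -0.36 before correction and 0.0024 after correction. Mtif3, an initiation factor, had a log2 change of 0.33 before correction and 0.067 after correction.

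Of 28 genes for assembly of the ribosome and modification of its RNA, 16 (57.1%) were higher, beside 40.6% over all tested genes. Their median was 0.23, and 1, Gtpbp10, was lower. After correction, 11 (39.3%) were higher and 2 lower, with a median of 0.035, close to the 35.5% and the median of 0.026 over all genes. In TPM, 11 (39.3%) were higher and 5 (17.9%) lower, beside 25.0% and 51.0% over all genes. Mpv17l2, needed for ribosome assembly, averaged 29.9 ± 2.06 FPKM in Gsdmd-/- samples and 17.6 ± 0.516 FPKM in WT samples (SD, n = 3 each), a log2 change of 0.73 before correction and 0.25 after correction. Rbfa, a small-subunit assembly factor, averaged 20.03 ± 1.11 FPKM in Gsdmd-/- samples and 11.99 ± 0.207 FPKM in WT samples (SD, n = 3 each), a log2 change of 0.69 before correction and 0.28 after correction. The GTPases Mtg2 and Gtpbp6 had log2 changes of 0.56 and 0.52 before correction, and 0.24 and 0.019 after correction.

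Among 17 genes for transcription of mitochondrial DNA and stability of its RNA, 7 were higher and 3 lower (Trmt10c, Pnpt1 and Tfb2m), with a median of 0.10. That share of 41.2% higher is near the 40.6% over all tested genes. In TPM 3 (17.6%) were higher and 7 (41.2%) lower, with a median of -0.11. Over all tested genes the TPM values were 25.0%, 51.0% and -0.17. After correction 9 (52.9%) were higher and 2 (11.8%) lower, beside 35.5% and 31.8% over all genes. Slirp, which guards mitochondrial messenger RNAs, averaged 109 ± 7.06 FPKM in Gsdmd-/- samples and 68.6 ± 2.41 FPKM in WT samples (SD, n = 3 each), a log2 change of 0.66. Hsd17b10 and Trmt10c, which work together in mitochondrial tRNA processing, moved apart, with log2 changes of 0.55 and -0.53 before correction and 0.30 and -0.17 after correction. Pnpt1, a mitochondrial exoribonuclease, had a log2 change of -0.26 before correction and 0.11 after correction.

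Of the 8 tested regulators of mitochondrial biogenesis (10 listed), 2 (25.0%) were lower and 6 not called, with a median of -0.087. Over all tested genes 36.9% were lower, a larger share. Gabpa, the DNA-binding subunit of the ETS factor GABP, averaged 5.14 ± 0.244 FPKM in Gsdmd-/- samples and 8.93 ± 0.233 FPKM in WT samples (SD, n = 3 each), a log2 change of -0.69 (limma adjusted p = 3.035e-07) before correction and -0.28 after correction. Yy1 averaged 10.03 ± 0.450 FPKM in Gsdmd-/- samples and 15.03 ± 0.607 FPKM in WT samples (SD, n = 3 each), a log2 change of -0.54 (limma adjusted p = 1.373e-06), or -0.15 after correction. Both remained called lower in that setting. Esrra, a nuclear receptor of mitochondrial genes, had a log2 change of 0.14 (adjusted p = 0.0772) before correction and -0.34, a lower call, after correction, and Gabpb1, the partner of Gabpa, had -0.13 (adjusted p = 0.0814) before correction and 0.065 after it. After correction, 5 of the 8 were lower and 3 not called, beside 31.8% lower over all genes. In TPM 6 were lower and 2 not called, where 51.0% of all tested genes were lower. Whether these counts differ from the shares over all genes was not tested.

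The gene families most like the mitochondrial ribosomal proteins were also mostly higher, where 40.6% of all tested genes were higher and 36.9% lower. Of 78 tested nuclear genes for respiratory chain subunits, 73 were higher and 1 lower, with a median of 0.58, and of 80 tested cytosolic ribosomal protein genes 79 were higher, with a median of 0.66. After correction the medians were 0.30 and 0.39, beside 0.27 for the mitochondrial ribosomal proteins. Differences between these families were not tested.

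Many genes of the set start close to a neighbour on the opposite strand. In GENCODE M21, 33 of the 78 genes have a protein-coding partner on the opposite strand that starts within 1000 bases, head to head with it. One pair lies within the set: Mrpl46 and Mrps11, both higher, changed by 0.58 and 0.52 on the log2 scale. Of 31 partners outside the set, 25 were tested. Of these, 16 were higher and 2 were lower, with a median log2 change of 0.26. Over all tested genes 40.6% were higher and 36.9% lower, with a median of 0.027. In 15 pairs both genes were higher, a count largely set by how many genes of the set were higher. The changes of partners are before correction, and the share of all genes with such a partner was not counted. Mrps12 and Sars2, which encodes the mitochondrial seryl-tRNA synthetase, start 172 bases apart and changed by 0.65 and 0.69 on the log2 scale. Mrpl49 and Fau, which encodes a cytosolic ribosomal protein, start 59 bases apart and changed by 0.19 and 0.76. Mrps18b rose by 0.38 while its partner Ppp1r10, 45 bases away, fell by 0.16. The other lower partner was that of Mrpl48, Rab6a, with a log2 change of -0.79 beside 0.64 for Mrpl48. The pairs named here were chosen after their values were seen. In 14 of the 32 pairs the genes overlap at their starts, so their reads could not be told apart there without strand.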

How the data were processed

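Transcript levels were measured in 6 samples of sorted colon macrophages, 3 from Gsdmd-/- and 3 from WT mice, grouped and numbered by their titles. The sequencer was the BGISEQ-500, per the labels' protocols. The submitters' processing notes name Bowtie2 version 2.2.5 and GRCm38.p6. The authors made 1 normalized value per gene and deposited it without a unit, read here as FPKM, and the program, annotation and handling of strand behind it are not stated in the sources used. FPKM was inferred since samples do not share a common sum and the smallest steps between low values grow as transcripts get shorter. Depth was estimated from those steps, with 40 bases taken off each transcript. Counting errors given cover counting error only.

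The filter kept genes that reached 1 FPKM in 3 or more of the 6 samples. They were tested with limma version 3.58.1 (trend and robust settings, two-sided) in R version 4.3.3 on log2(FPKM + 1), with Benjamini-Hochberg adjustment over all 10005 tested genes. With 3 samples a group, a two-sided exact permutation test can give no p below 0.1. Transcript length and GC are medians over GENCODE M21 transcripts, known for 98.5% of tested genes, and the correction for them was fitted per sample with mgcv version 1.9.3. Exon overlaps and divergent neighbours come from the same annotation, and promoters from RefSeq. The tests were tried on simulated data. With no trend simulated, 0.113% of unchanged genes were called. With a length trend simulated, 67.1% of unchanged genes were called when it was left in and 0.0728% when it was removed. The size of the simulated trend was set in advance, not fitted to these data.

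The gene set, the pathway and marker lists and the rule for genes given with values were chosen with earlier results of these data known. That rule takes the 6 genes at each end of the log2 change, the 4 at each end of the mean level, the 4 at each end after correction, 10 genes of known role, all subunits outside the symbol pattern, and up to 4 genes per pathway list with the smallest p. Other filters, pseudocounts, scalings, a replicate block, plain limma and leaving out each sample were tried as alternatives.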

Additional observations from a re-analysis of the deposited data

How the results depend on the processing

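The count of higher genes of the set, 70 before correction, stayed within 1.5 times of that number in every alternative run. It was 67 with no filter, 68 with the filter at 5 FPKM, 70 with a pseudocount of 0.1 or 0.01, 67 with median ratio scaling, 70 with quantile normalization, 67 with limma without its trend and robust settings, 53 in TPM and 60 after correction for length and GC. Leaving out each sample in turn gave 65 to 69 higher genes before correction and 55 to 59 after it. In all 24 fits, 42 genes were called higher. Mrpl20 was called higher before correction and lower in 1 fit, without WT replicate 1 after correction.

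The count of lower genes was 1 before correction, 7 in TPM, 0 with no filter (1 at an unadjusted p under 0.05 by limma) and 0 with quantile normalization (0 unadjusted). Leaving out each sample gave 0 to 1 before correction and 0 to 2 after it. The cause was not tested.

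The replicate number used as a block gave 70 higher and 1 lower, and 62 higher and 1 lower after correction. Deviations of samples that share a number correlated at -0.0818, 0.132 and 0.0143, so the numbers were not taken as pairing the samples. The block lost the call of Ptcd3 and gained one for Esrra.

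Of the genes given with values, those whose direction turned after correction, with or without the block, were Mrpl3 (0.10), Mrpl50 (0.20), Mrps31 (0.029), Mrpl1 (0.34), Mrpl20 (-0.082), Mrpl44 (-0.081), Tufm (-0.018), Gfm1 (0.0024), Pnpt1 (0.11), Esrra (-0.34) and Gabpb1 (0.065). In TPM the genes given with values that turned were Mrps25 (-0.011), Mrps30 (-0.14), Mrpl20 (-0.011), Mrpl44 (-0.090), Ptcd3 (-0.059) and Esrra (-0.067), and with quantile normalization Mrpl50 (0.059) and Mrps31 (0.054). Counted over the whole set, 6 of the 78 genes turned after correction, all among those above, and 7 turned in TPM, the other 3 being Mrpl9 (-0.071), Mrpl32 (-0.054) and Mrpl49 (-0.0067). Of the 70 tested genes of the pathway lists, 18 turned after correction and 11 in TPM. Over all fits without 1 sample, before and after correction, the log2 change ran from -0.077 to 0.25 for Mrpl50, -0.078 to 0.065 for Mrps31, -0.062 to 0.13 for Mrpl3, -0.15 to 0.41 for Mrpl1, -0.046 to 0.33 for Mrpl10, -0.11 to 0.25 for Mrpl20, -0.12 to 0.16 for Mrpl44, -0.046 to 0.37 for Tufm, -0.38 to 0.0086 for Gfm1, -0.29 to 0.14 for Pnpt1, -0.38 to 0.22 for Esrra, -0.19 to 0.14 for Gabpb1 and -0.0076 to 0.55 for Gtpbp6. The cause of these turns was not tested.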
